A study of Homo sapiens with 38 samples.

Results

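Acetylation of histone H3 at lysine 27 (H3K27ac) was followed gene by gene in stimulated Jurkat cells that carried a control lentivirus (labelled Ctrl_LV). All 113570 lines of the pooled H3K27ac list were used, of the 168784 lines in the 3 lists analysed for these cells, and each line is 1 called peak. For each protein-coding gene record of RefSeq GRCh38, the peaks lying wholly within the record plus 10 kb on each side were taken, their widths were summed, and the highest signal value among them was kept. The series table holds 20052 such records, of which 13 mitochondrial and 6 unplaced ones were left out, so that 20033 genes were ranked. The choice of genes as most or least acetylated follows from these sums and maxima, which are therefore given as a description without a test.

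The series mapped transcription factors and histone marks with ChIP-seq, in which antibody-bound chromatin is pulled down and its DNA sequenced, over 38 samples that formed 19 groups of 2. Jurkat is an established human line derived from a T-cell acute lymphoblastic leukaemia. The group described here was 2 samples of unedited Jurkat cells transduced with the control lentivirus, the counterpart of cells that over-express the transcription factor BHLHE40, and precipitated with an antibody against H3K27ac. Both samples were stimulated with phorbol ester (PMA, 50 ng/ml) and ionomycin (500 ng/ml), a pair of drugs that together bypass the T-cell receptor, for 5 h by the sample labels and 2 h by the treatment protocol. No resting cells are among the files used, so a gene's level here cannot be set against its level before stimulation. A single list stands for both samples, so no value below has a replicate spread, and the intervals cover counting of genes only. The depth behind the list is unknown. The BHLHE40 list (26205 peaks) and the GATA3 list (29009 peaks) of the same control cells were used as separate readouts. By their labels these 2 were cut for reproducibility between replicates and the H3K27ac list was only pooled. Presence and counts of regions are therefore not on the same footing across the lists.

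H3K27ac is placed by the acetyltransferases p300 and CBP on nucleosomes beside active promoters and enhancers, and it is removed by histone deacetylases. A promoter carries the mark on the nucleosomes that flank its open start site, whereas an enhancer may lie far from any start, often in an intron of the gene it serves or of a neighbour. Many human promoters lie in CpG islands, stretches rich in the dinucleotide CG that are mostly free of DNA methylation and are often open in many cell types, while promoters poor in CpG tend to belong to genes of restricted tissues.

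A gene could lead this list in 3 ways, by the sum of its peaks, by its single strongest peak or by the share of its window that the peaks cover, and the sequences before the starts of the leading genes show how unlike these genes are. The 250 bases before the start nearest to the beginning of the record are given below 5′ to 3′ in the direction of transcription (RefSeq, GRCh38.p14), with every CG dinucleotide and every TATAAA in capitals. CDK6 (chr7:92836574-92836823, minus strand) had the largest sum, and TCF3 (chr19:1652616-1652865, minus strand) had the second highest signal value. JUNB (chr19:12791236-12791485, plus strand) and the histone gene H4C2 (chr6:26027284-26027533, minus strand) were among the most covered. CD3D (chr11:118342706-118342955, minus strand) is an acetylated T-cell gene with few CpG. SLC8A1 (chr2:40512436-40512685, minus strand) and ALB (chr4:73404037-73404286, plus strand) had no peak.
CDK6: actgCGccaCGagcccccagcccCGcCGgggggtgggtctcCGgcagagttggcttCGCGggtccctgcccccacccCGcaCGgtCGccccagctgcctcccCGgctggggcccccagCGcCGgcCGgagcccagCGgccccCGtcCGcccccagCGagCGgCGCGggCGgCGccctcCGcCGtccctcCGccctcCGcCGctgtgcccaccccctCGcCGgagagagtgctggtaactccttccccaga
TCF3: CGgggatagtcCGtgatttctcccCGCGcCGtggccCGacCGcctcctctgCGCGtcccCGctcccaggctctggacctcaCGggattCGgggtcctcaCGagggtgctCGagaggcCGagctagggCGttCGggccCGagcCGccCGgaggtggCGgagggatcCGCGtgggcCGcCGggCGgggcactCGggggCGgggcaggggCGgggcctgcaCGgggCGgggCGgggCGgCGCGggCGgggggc
JUNB: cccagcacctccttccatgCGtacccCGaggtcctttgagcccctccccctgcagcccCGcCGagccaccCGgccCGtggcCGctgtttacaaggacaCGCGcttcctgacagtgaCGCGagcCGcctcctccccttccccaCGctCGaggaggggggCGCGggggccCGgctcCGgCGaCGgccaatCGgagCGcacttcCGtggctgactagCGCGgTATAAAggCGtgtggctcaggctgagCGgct
H4C2: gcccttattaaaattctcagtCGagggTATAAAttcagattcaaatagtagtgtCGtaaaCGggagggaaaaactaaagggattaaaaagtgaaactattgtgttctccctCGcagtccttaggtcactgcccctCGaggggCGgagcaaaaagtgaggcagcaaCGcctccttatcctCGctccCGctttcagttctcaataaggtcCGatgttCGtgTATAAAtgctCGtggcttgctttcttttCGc
CD3D: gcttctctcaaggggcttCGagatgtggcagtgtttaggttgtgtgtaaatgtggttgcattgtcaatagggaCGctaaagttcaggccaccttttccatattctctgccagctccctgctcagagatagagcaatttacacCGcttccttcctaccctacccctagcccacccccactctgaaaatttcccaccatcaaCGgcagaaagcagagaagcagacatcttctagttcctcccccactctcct
SLC8A1: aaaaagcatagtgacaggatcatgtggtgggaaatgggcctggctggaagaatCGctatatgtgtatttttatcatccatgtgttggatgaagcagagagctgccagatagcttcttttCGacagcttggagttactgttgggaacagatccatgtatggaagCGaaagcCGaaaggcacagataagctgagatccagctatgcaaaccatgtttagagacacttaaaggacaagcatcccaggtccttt
ALB: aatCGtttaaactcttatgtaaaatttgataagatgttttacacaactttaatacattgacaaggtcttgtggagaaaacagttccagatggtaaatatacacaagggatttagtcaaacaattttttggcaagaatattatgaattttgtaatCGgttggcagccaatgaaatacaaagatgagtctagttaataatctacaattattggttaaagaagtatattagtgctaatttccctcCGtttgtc
The stretch before CDK6 holds 30 CpG and that before TCF3 holds 36. JUNB has 27 CpG and a TATAAA whose first base lies 31 bases before the start. H4C2 has 13 CpG and 2 TATAAA, the nearer also starting 31 bases before the start. CD3D and SLC8A1 hold 4 CpG each and ALB holds 3, so a low CpG content is shared by an acetylated gene and by genes without the mark.

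At least 1 H3K27ac peak lay in the window of 16404 genes (81.9%), and 3629 genes (18.1%, 95% Wilson interval 17.6 to 18.7%) had none. Many of the peaks were weak. A strong peak, defined here as one with a −log10 q-value of at least 5, was present for 13016 genes (65.0%), and 3388 genes (16.9%) had weak peaks only. The median gene had 3 peaks with a summed width of 1430 bp, the quartiles were 328 and 2627 bp, and the largest sum was 30693 bp. The median share of the window covered by peaks was 2.50% and the highest was 29.2%. The median of the highest signal value was 5.60 and its maximum 35.9, in the units of the deposited signal column, whose reference is not given in the sources used here. The mark was unevenly spread, with 35.3% of all summed width in the top 10.0% of genes. Of all peaks, 35173 (31.0%) lay in no gene window, and 14475 lay in the windows of several genes, up to 23 for 1 peak, so neighbouring genes share values.

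The 3 rankings picked different genes. Among the top 100 genes of each, none was shared between summed width and highest signal, none between summed width and covered share, and 2 between highest signal and covered share. Summed width rose with record length across genes (Spearman's rank correlation 0.43 over 20033 genes, which are not independent, and 0.35 over the 16404 genes with a peak). For covered share the rank correlation with length was −0.10 over all genes and −0.46 over those with a peak. With genes in 10 groups of equal size by record length, the median sum went from 201.5 bp in the shortest group to 3217 bp in the longest, while the median covered share was 0.932% in the shortest group, 3.53% in the next and 0.908% in the longest. The share of genes without any peak went from 44.5% in the shortest to 4.84% in the longest group. The other measures are therefore given beside the sum.

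**Figure D1:**
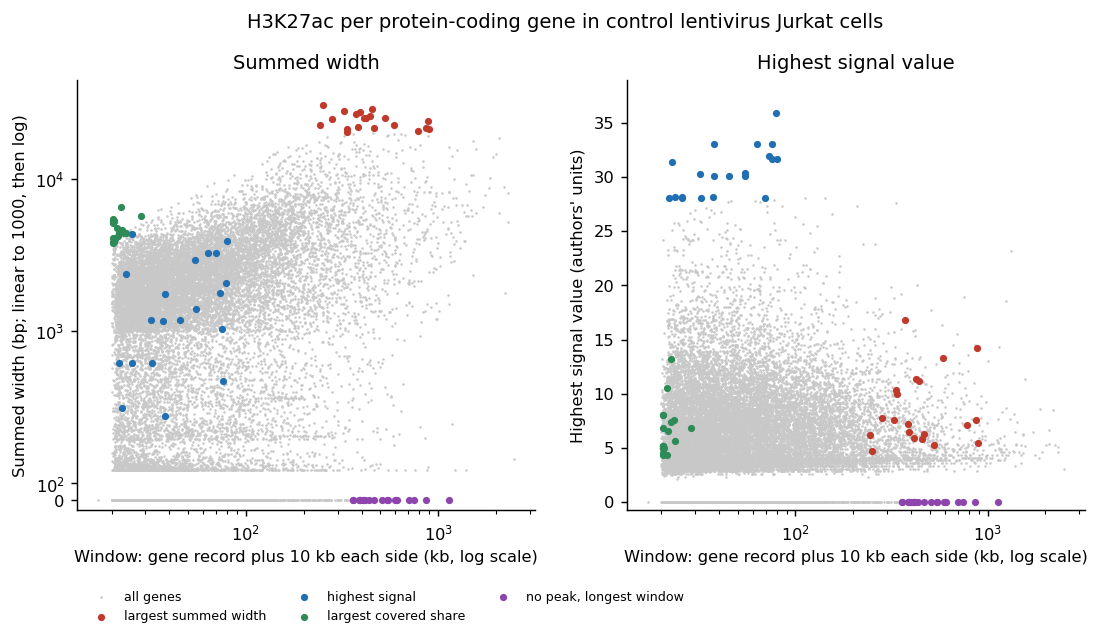
Summed width of H3K27ac peaks (left, linear to 1000 bp and logarithmic above) and highest signal value (right, linear) per gene against the length of the gene's window (logarithmic), with all 20033 genes in grey and the 20 leading genes of each ranking and the 20 longest windows without a peak in colour. The genes with the largest sums (red) had long windows, those with the largest covered shares (green) had windows near the minimum of about 20 kb, and those with the highest signal values (blue, 28.1 to 35.9) mostly had modest sums.

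The 20 genes with the largest sums were long genes of varied function, and they are described here by what each encodes. CDK6, a kinase that pairs with D-type cyclins to start the cell cycle, led with 58 peaks over 30693 bp, 34 of them strong (record chr7:92604921-92836573). CDK6 also covered 12.2% of its window and ranked first when only strong peaks were summed, although its highest signal value was 4.64, below the median of all genes. LDLRAD4, a membrane protein that dampens TGF-beta signalling, followed with 70 peaks over 29153 bp. CHST11, a chondroitin sulfotransferase, had 60 peaks over 28069 bp. BACH2, a transcriptional repressor of lymphocytes, had 64 peaks over 27635 bp. HDAC4, itself a histone deacetylase, had 49 peaks over 26796 bp and, with 16.8, the highest signal value of these 20 genes.

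Several others encode signalling proteins. RPTOR, the scaffold of the growth-regulating kinase complex mTORC1, had 57 peaks over 26048 bp. The protein kinase C genes PRKCA and PRKCH, of the enzyme family that PMA activates, had sums of 25332 and 21954 bp. VAV3, a guanine nucleotide exchange factor, had 65 peaks over 25301 bp. GNAQ, a G protein alpha subunit, reached 21265 bp, and RGS6, a regulator of G protein signalling, reached 20745 bp. The peaks of these 6 genes covered between 2.65% and 6.33% of the window. By strong peaks alone they held places between 5 and 28.

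Others encode regulators of transcription or RNA. RUNX1, a transcription factor of blood cell development and a frequent target of rearrangement in leukaemia, had 54 peaks over 24837 bp (8.82% of its window). TOX, a nuclear factor of T-cell development, had 52 peaks over 20458 bp. CELF2 and MSI2, which encode RNA-binding proteins, had sums of 21249 and 21601 bp. SUPT3H, a subunit of the SAGA coactivator complex, had 67 peaks over 22660 bp, and its strongest peak also lies in the window of RUNX2, which overlaps it. The remaining genes serve the cytoskeleton, glycosylation and membrane traffic: MACF1 (a cytoskeletal linker, 25447 bp), GALNT2 (an enzyme of mucin-type glycosylation, 22673 bp), EXOC4 (a subunit of the exocyst, 21761 bp) and VPS13B.

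VPS13B, which encodes a lipid-transfer protein of the Golgi, shows what a sum can hide. It had the most peaks of any gene, 93, over 24143 bp, but only 4 of them were strong. By the width of strong peaks alone, 2519 bp, VPS13B ranked at place 2296. Most of the 20 genes were not of this kind: 71 of the top 100 genes by sum stayed in the top 100 when only strong peaks were used.

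In these long genes the mark lay mostly away from starts. Over the 20 genes, 90.4% of the summed width lay inside the record more than 1 kb from any listed start, 5.29% lay within 1 kb of an own start, 2.40% within 1 kb of another gene's start and 1.91% elsewhere in the flanks. Over the 15841 genes with a listed start these shares were 44.5%, 30.9%, 11.1% and 13.5%. The 2 sets are not alike, because only 17 of the 20 genes had a listed start. A peak at an unlisted own start counts under the other positions. The BHLHE40 and GATA3 lists placed regions in the windows of all 20 genes, against 64.7% and 52.7% of all genes. The medians were 19 and 21 regions per gene, against 1 and 1 over all genes. Per Mb of window this was 44.8 BHLHE40 and 50.0 GATA3 regions, against 16.5 and 14.4 over all genes. BACH2 held the most BHLHE40 regions of the 20 (50) and CDK6 the most GATA3 regions (46).

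**Figure D2:**
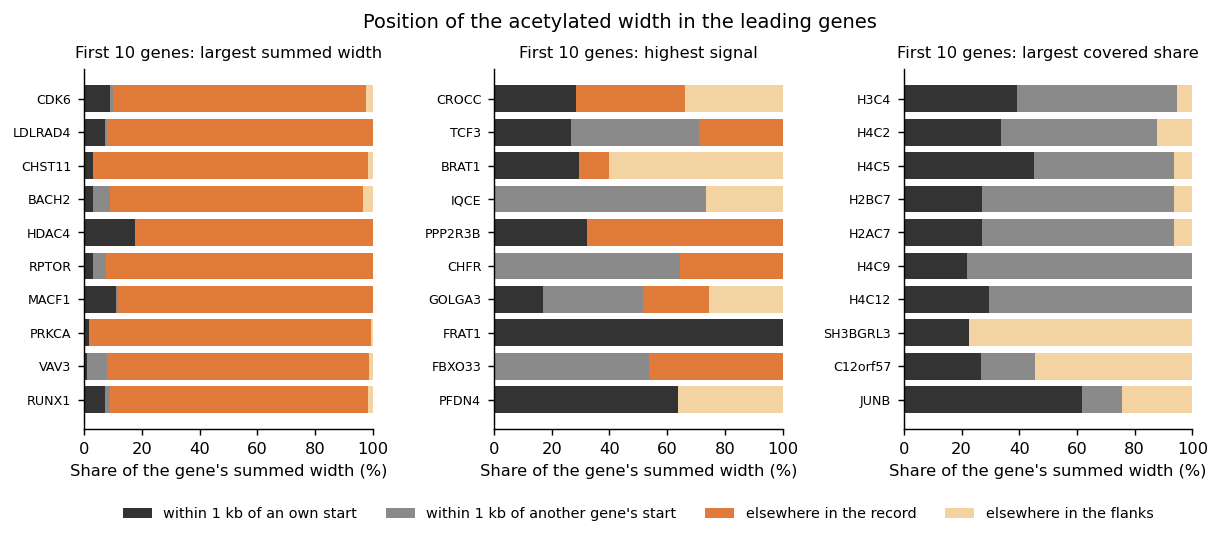
Share of each gene's summed H3K27ac width (horizontal axis, %) by position, for the first 10 genes of each of the 3 rankings, best ranked at the top. Orange, for places inside the record more than 1 kb from a listed start, fills most of the bars in the left panel, while black and grey, for the surroundings of starts, are larger in the other panels; genes without a listed start show no black.

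The 20 genes with the highest signal values drew them from only 12 distinct peaks, because neighbours share a peak. Their sums were ordinary, with a median of 1288 bp and 3.5 peaks. CROCC, which encodes a protein of the ciliary rootlet, had the highest value, 35.9, from a peak at chr1:16904812-16905510 that lies in the flank before its start. TCF3, which encodes the E2A transcription factors of lymphocyte development, had 33.1 from a peak of 391 bp just before its start (chr19:1652658-1653048). BRAT1 and IQCE shared a peak of 33.0, and CHFR, a checkpoint ubiquitin ligase, shared one of 31.7 with GOLGA3, a Golgi protein. PPP2R3B, a regulatory subunit of the phosphatase PP2A on chromosome X, had 32.0. COPS3, a subunit of the COP9 signalosome, and FLCN, the tumour suppressor folliculin, shared a peak of 30.1. CIRBP, a cold-inducible RNA-binding protein, shared a peak of 28.2 with FAM174C and EFNA2.

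Several members of this ranking were there through a neighbour. GFAP, the filament protein of astrocytes, had a signal value of 28.1 from 1 peak at chr17:44898971-44899782, which it shared with EFTUD2, a core component of the spliceosome, with DNAAF19 and with FAM187A. That peak lay within 1 kb of starts of EFTUD2 and DNAAF19 and not of the listed start of FAM187A. FRAT1 (31.4) and DNAAF19 also had only 1 peak each. Starts with a high signal value more often had a gene running the other way from within 1 kb. With the genes that have a peak in 5 equal groups by signal value, such head-to-head starts were found for 18.4% of the highest group, 2.56% of the lowest and 1.59% of genes without a peak, against 10.2% of all 15841 genes with a listed start.

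The genes with the largest covered share were mostly histone genes. Of the 20, 14 were replication-dependent histone genes of the clusters on chromosome 6, which supply histones in S phase and sit close together. H3C4 led with 29.2% of its window in 7 peaks (6572 bp), followed by H4C2 with 26.7% and H4C5 with 26.1%. H4C5, H2BC7 and H2AC7 shared all 6 of their peaks, so the 20 genes rest on 13 distinct strongest peaks. The strongest peak around H4C5 ran from 26204141 to 26206536 on chromosome 6. In these 20 windows 54.9% of the summed width lay at another gene's start. Outside the histone clusters, JUNB, an AP-1 transcription factor induced within minutes of stimulation, had 20.2% of its window covered by 3 peaks, the strongest of them spanning the gene (chr19:12791458-12794169). SH3BGRL3 had 22.3% in 10 peaks and C12orf57 had 20.4%.

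The highest signal values of these 20 genes ran from 4.29 to 13.2, with a median of 5.40 against 5.60 over all genes, and the largest, that of C12orf57, was above the 90th percentile of all genes (11.8). To see past length, the gene with the largest sum in each of the 10 length groups was also listed, a choice made after values had been seen. From the shortest to the longest group these were H3C4 (6572 bp), EFEMP2 (4870 bp), H2BC12 (5751 bp), PTPN6 (6236 bp), KDM6B (6593 bp), LCK (7839 bp), PHF19 (9507 bp), ZC3HAV1 (10702 bp), CCDC88C (16185 bp) and CDK6 (30693 bp). LCK is the kinase that starts T-cell receptor signalling, PTPN6 is the phosphatase SHP-1 that restrains it, and KDM6B is an H3K27 demethylase.

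Marker genes of cell types were described next, and the mark sat on the T-cell genes. The lists were chosen with earlier results of these data known, so they are no independent check of the cell label. All 27 genes of the T-cell identity list had a peak and all 27 had a strong one, with a median sum of 5519 bp and a median covered share of 8.88%, against 1430 bp and 2.50% over all genes. The top 10.0% of all genes held 18 of them by sum and 19 by covered share, but none by signal value. Among the subunits of the T-cell receptor complex, CD3D had 4 peaks over 2553 bp, CD3E 3 over 3586 bp, CD3G 6 over 3876 bp and CD247 19 over 8792 bp. Their partners in signalling were covered as well: LCK 14.3%, ZAP70 5.79%, LAT 7.62% and LCP2 10.0% of the window. Of the transcription factors, LEF1 had 31 peaks over 14602 bp, IKZF1 28 over 12556 bp, ETS1 28 over 10386 bp, TCF7 19 over 6241 bp and GATA3 8 over 3329 bp. BCL11B, a factor of T-cell commitment, had the fewest strong peaks of the list, 1 of 16.

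Markers of 10 other cell types gave a different picture. Of these 81 genes 53 had a peak and 20 had a strong one (65.4% and 24.7%, against 81.9% and 65.0% of all genes), and the median sum was 343 bp. The lists were uneven. A strong peak was present for 4 of 9 myeloid, 4 of 8 endothelial, 3 of 8 erythroid and 3 of 8 B-cell markers, for 2 of 8 neuron and 2 of 8 epithelial markers, for 1 of 8 hepatocyte and 1 of 8 germline markers, and for none of the 8 muscle and 8 fibroblast markers. Counting weak peaks too, 8 of 9 myeloid, 7 of 8 B-cell, 6 of 8 endothelial and 6 of 8 erythroid markers had a peak. Of the 42 that matched a listed start, 1 had a peak within 1 kb of it, compared with 18 of 18 for the T-cell genes and 57.6% of all genes. That gene was CD79A, a subunit of the B-cell receptor, whose strongest peak also lies in the window of ARHGEF1. Markers without any peak included ALB and APOB of the 5 such hepatocyte markers, KRT5, KRT8 and EPCAM of the 4 epithelial ones, MYOD1, MYH7 and DES of the 6 muscle ones, HBB as 1 of 2 erythroid ones and VWF as 1 of 2 endothelial ones. CEBPA was the only myeloid marker without a peak. By signal value, 5 of the 81 markers (6.17%) were in the top 10.0% of all genes. Some of the high values came from peaks shared with a neighbour: LYZ (16.9) with YEATS4, GATA1 (14.9) with HDAC6 and ALAS2 (14.9) with APEX2 and PFKFB1. An epithelial marker, with 12.4, was also among the 5. Among the endothelial markers, ERG had 11 peaks over 4322 bp, 3 of them strong, and PECAM1 had 9 over 3022 bp, 4 of them strong. Neither shared its strongest peak with another gene.

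Drivers of T-cell leukaemia, mostly transcription factors, differed among themselves. Of 14 such genes 11 had a peak and 10 a strong one (78.6% and 71.4%), shares close to those of all genes (81.9% and 65.0%). TAL1, the oncogenic factor of a common subtype, had 10 peaks over 4336 bp (12.0% of its window), and MYB had 11 peaks over 5095 bp. TRIB2 had 7 peaks over 4192 bp, NOTCH1 9 over 3106 bp, LYL1 4 over 1579 bp and MYC 4 over 1534 bp. LMO1 and LMO2, which encode partners of TAL1 in T-cell leukaemia, had 1 peak each, of 719 and 1254 bp. TLX1, TLX3 and NKX2-1, which mark other subtypes, had no peak.

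Genes known to be induced by T-cell activation had larger covered shares than most genes, with a median of 7.44% against 2.50%. They were also short, with a median record of 5366 bp against 24130 bp, and covered share varied with length. In the length group of 3071 to 6430 bp the median covered share was 3.53%. The part of length in the difference was not tested. Of 28 genes 27 had a peak (96.4%, against 81.9% of all genes), 22 had a strong one (78.6%, against 65.0%) and 14 were in the top 10.0% of all genes by covered share. CD69, an early surface marker of activation, had 9 peaks over 5101 bp (18.0%). IL2, the growth factor of T cells, had 6 peaks over 3366 bp (13.3%), of which 3 were strong, and TNF had 5 over 2766 bp (12.1%). CD40LG, which encodes the ligand that helper T cells show to B cells, had 9 peaks over 4225 bp (13.1%). Of the nuclear receptors, NR4A1 had 14 peaks over 5901 bp and NR4A3 10 over 4364 bp, but NR4A2 had 4 peaks and none strong. FOS and FOSB, AP-1 factors, had some of the higher signal values of the list, 25.8 and 25.9, whereas FOS had only 1 peak, of 557 bp. The cytokine genes IFNG (1 peak of 237 bp) and CSF2 (2 peaks over 666 bp) and the factor IRF4 (1 peak of 180 bp) had weak peaks only, and the chemokine gene CCL4 had none. The near-identical chemokine genes XCL1 and XCL2 had 1 weak peak and 4 peaks, 3 of them strong. Reads of such copies can be divided or lost in mapping, and how they were treated is not given in the sources used here.

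The machinery every cell uses was acetylated almost without exception in most of its lists. All 50 proteasome subunit genes and all 37 complex I subunit genes had a strong peak, against 65.0% of all genes. So did 83 of 84 cytosolic ribosomal protein genes and 74 of 77 mitochondrial ones. The shares were lower for initiation factors (48 of 56, 85.7%) and hnRNP genes (21 of 26, 80.8%). Counting weak peaks too, the hnRNP share stayed at 80.8%, near the 81.9% of all genes. The single ribosomal protein gene without a peak was RPL10L, a copy of RPL10 known for its role in the testis. Over 342 genes of 7 housekeeping lists, 324 had a strong peak (94.7%, against 65.0% of all genes). Of the 293 with a listed start 282 had a peak at it (96.2%, against 57.6%). Their sums were close to those of many other genes, with a median of 1922 bp, but they stood high by signal value, with a median of 8.90 against 5.60 over all genes. The genes without a peak in these lists were largely copies of other members: HNRNPA1L3 and HNRNPCL1 to HNRNPCL4 among the hnRNP genes, and EIF3C, EIF3CL and EIF5AL1 among the initiation factors. EIF3C and EIF3CL are near-identical, so a missing peak there cannot be told apart from reads that fit both copies.

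Replication-dependent histone genes were the most densely covered list. Of 69 genes 66 had a peak, 64 had a strong one, and 59 were in the top 10.0% of genes by covered share, though none was in the top 10.0% by signal value. Their median covered share was 14.7%, and the 69 windows together held 92 distinct peaks. The 3 histone genes without a peak were H2AC1, H2BC1 and H4C14. H2AC1 and H2BC1 encode testis histones and lie next to each other.

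**Figure D3:**
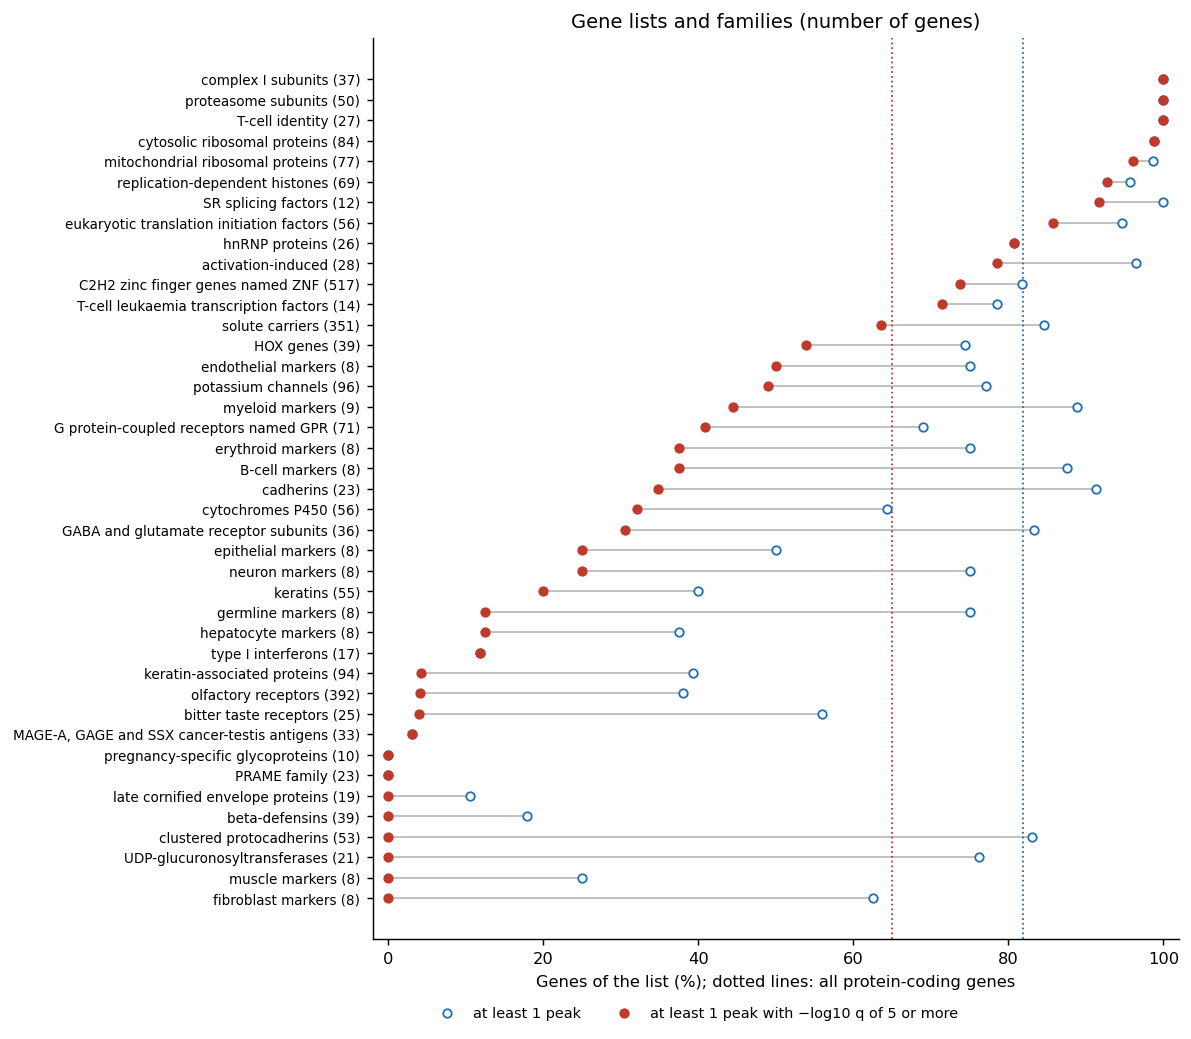
Share of the genes of each list or family (rows, number of genes in parentheses) with at least 1 H3K27ac peak (open circles) and with at least 1 strong peak (filled circles), with dotted lines for all genes at 81.9% and 65.0%; an open circle hidden behind a filled one has the same value. The T-cell identity list and most housekeeping lists sit at the right on both measures, and several families lose nearly all their genes when weak peaks are set aside.

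At the other end were families that serve other tissues, to be set against 81.9% of all genes with a peak and 65.0% with a strong one. The 23 PRAME family genes and 10 pregnancy-specific glycoprotein genes had no peak at all. Of 33 genes caught by the names MAGE-A, GAGE and SSX, the antigens of testis and tumours on chromosome X, 1 had a peak, and that was SSX2IP, a centrosomal protein gene on another chromosome that is no antigen. Of 19 late cornified envelope genes of the skin 2 had a peak, both the same weak one. Of 39 beta-defensin genes 7 had a peak and none a strong one. Of 17 type I interferon genes 15 had none: the exceptions were IFNB1, the interferon most cell types can induce, with 4 peaks over 1729 bp and 2 of them strong, and IFNK with 1 peak of 188 bp. Several of these families are short. The median record was 980 bp for interferons, 1257 bp for late cornified envelope genes, 4511 bp for beta-defensins and 5369 bp for PRAME, against 24130 bp over all genes. In the 2 shortest of the 10 length groups 44.5% and 30.7% of genes had no peak. The part of length in these counts was not tested. Several of these families also consist of similar gene copies, whose reads can be divided or lost in mapping. A missing peak in such copies cannot be told apart from a loss of reads.

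In other families the share of genes with a peak fell, to differing degrees, when weak peaks were set aside. Of 392 olfactory receptor genes 149 had a peak (38.0%), but only 16 had a strong one, and OR10T2 had the largest covered share of them (7 peaks over 3543 bp, 5 strong, shared by its strongest peak with no other gene). Among 53 clustered protocadherin genes 44 had a peak and none a strong one, and their windows, which overlap, held 10 distinct peaks. Of 21 UDP-glucuronosyltransferase genes of liver and gut 16 had a peak and none a strong one, and the 9 UGT1A genes shared 1 peak of 237 bp. Potassium channel genes (74 of 96 with a peak, 47 with a strong one) and HOX genes (29 of 39 and 21) had shares with a peak of 77.1% and 74.4%, against 81.9% of all genes, and shares with a strong peak of 49.0% and 53.8%, against 65.0%. Within HOX, HOXC4, HOXC5, HOXC6 and HOXC8 shared a peak with a signal value of 13.5, and HOXA11, HOXA13, HOXD10 and HOXD11 had none.

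The genes without a peak were short as a rule, with a median record of 8798 bp against 24130 bp over all genes, so the longest of them are the more unusual. Long windows without a peak included those of PCDH11X (a protocadherin, 863856 bp), CALN1 (a neuronal calcium-binding protein, 744789 bp), DACH2 (a transcription factor, 704152 bp) and FGF13 (a regulator of sodium channels, 610297 bp). RBFOX3 (596227 bp) encodes the neuronal nuclear antigen NeuN, SLC8A1 (435166 bp) the sodium-calcium exchanger of heart muscle, NLGN4X (358826 bp) a postsynaptic adhesion protein, DNAH9 (391279 bp) a dynein of motile cilia and TEX11 (417485 bp) a meiotic protein. Of the 20 longest, 8 were on chromosome X, among them MID1. Chromosome X holds 848 of all 20033 genes and 410 of the 3629 genes without a peak.

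The factors were scarce in these windows too, though not at 0. Of the 20 windows without a peak, 5 held a BHLHE40 region and 9 a GATA3 region, 1 or 2 each. These shares of 25.0% and 45.0% compare with 64.7% and 52.7% of all genes, so for GATA3 the share of windows was not far lower. Per Mb of these long windows there were 0.459 BHLHE40 and 1.01 GATA3 regions, against 16.5 and 14.4 over all genes. SLC8A1 held 1 region of each factor without an H3K27ac peak. None of the 14 of these genes with a listed start had a factor region within 1 kb of it.

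To describe starts, factor regions and promoter letters across genes, genes were put in 6 classes: those without a peak and 5 equal classes by summed width. Starts were taken from RefSeq, which matched 15841 genes (79.1%) with 22174 starts. A peak within 1 kb of an own start was found for 22.4% of genes with a start in the narrowest class, then 64.2%, 79.1%, 86.2% and 88.5% in the widest, and for 57.6% over all. These are the same peaks that make up the sums, so this share is 0 by construction in genes without a peak and its increase with the sum is a description only. The largest step was thus between the narrowest class, whose sums were at most 775 bp, and the next. Most genes with a sum above that had a peak at their start.

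**Figure D4:**
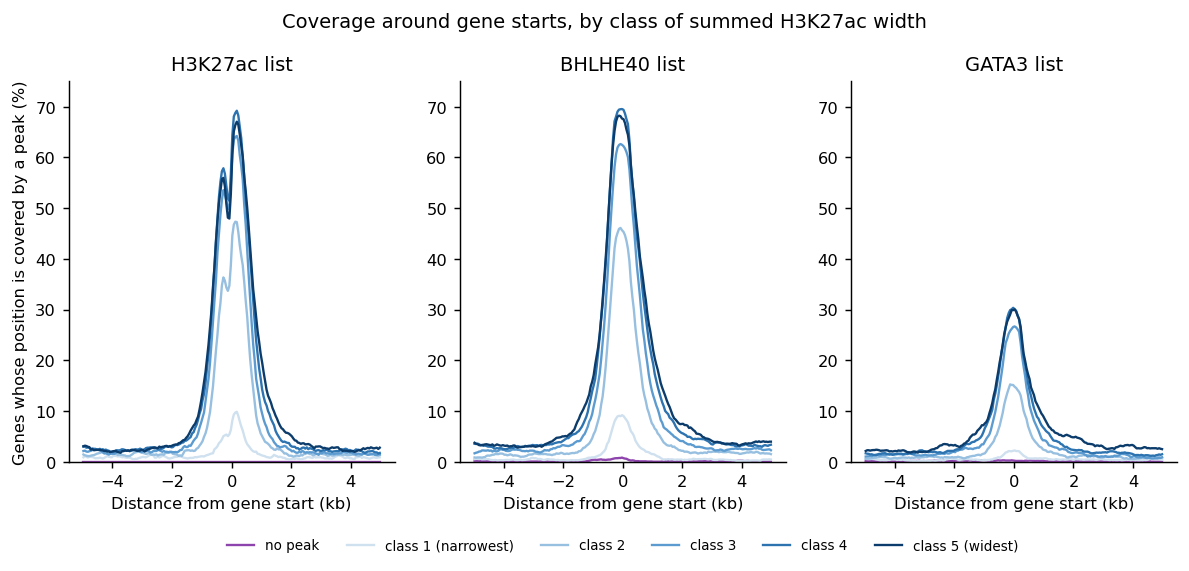
Share of genes (%) whose position at a given distance from the start (horizontal axis, kb, transcription to the right) is covered by a peak of the H3K27ac, BHLHE40 or GATA3 list, with 1 curve for each class of summed H3K27ac width. In each class with a peak the H3K27ac curve is highest just after the start; except in the narrowest class it also has a lower summit 275 bp before the start and a dip between, and the factor lists show a single summit close to the start; the curves of the classes keep the same order up to the fourth class, and the widest class lies close to it.

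Around the start, coverage by H3K27ac was highest just after it in each class with a peak. In the fourth class, 57.9% of genes were covered 275 bp before the start and 69.2% were covered 175 bp after it, with a dip between that is visible in the profile. In the widest class the values at the same places were 56.0% and 67.1%. The BHLHE40 list peaked within 125 bp before the start instead, at 69.5% in the fourth class and 68.2% in the widest, and GATA3 at 30.3% in the fourth. At 5 kb on either side, coverage by H3K27ac was between 1.73% and 3.06% in these classes.

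The occupancy of starts by the factors followed the classes. BHLHE40 regions lay within 1 kb of a start for 1.40% of genes without an H3K27ac peak, then for 12.3%, 52.3%, 68.7%, 77.4% and 79.9% from the narrowest to the widest class (49.6% of all genes). For GATA3 the shares were 1.09%, 3.93%, 19.8%, 32.5%, 39.1% and 42.8% (23.7% of all). The difference between the widest class and the genes without a peak was 78.5 percentage points for BHLHE40 and 41.7 for GATA3. The factor lists come from the same cells and from other antibodies, but the 3 lists may share open chromatin and its background, and the part of either in these shares was not tested.

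Base composition of the promoters followed the mark up to a limit. The ratio of observed to expected CpG in the 300 bases around the start had a median of 0.36 in genes without a peak, 0.53 in the narrowest class, 0.78 in the next and 0.82, 0.84 and 0.84 in the widest 3. Read the other way, a peak lay at the start of 16.6% of genes with a ratio under 0.2, 23.9% from 0.2 to 0.4, 40.2% from 0.4 to 0.6, 64.2% from 0.6 to 0.8 and 79.5% above. T-cell identity genes departed from this: their median ratio was 0.36, and all 10 with a ratio under 0.4 had a peak at the start, where 809 of all 3999 such genes (20.2%) had one. Those 10 were CD2, CD247, CD3D, LAT, LCK, LCP2, PTPRC, THEMIS, TRAT1 and ZAP70. The stretch before CD3D printed above shows such a promoter, with 4 CpG in 250 bases.

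Short letter strings differed between the classes as well. The letters TATAAA, sought on both strands of the 300 bases, were found in 18.2% of genes without a peak, 15.7% of the narrowest class and 5.50% of the widest, against 9.75% of all. The 100 genes with the largest covered share went the other way, with 28.9%, and many of these are histone genes such as H4C2 above. The letters CCGGAA, the core that ETS family factors read, were found in 9.71% of genes without a peak, 31.9% of the fourth class and 25.2% of the widest (22.7% of all), and in 35.6% of the highest of the 5 groups by signal value. The E-box CACGTG, which BHLHE40 can bind, was found in 7.22% of genes without a peak and then in 5.48%, 9.72%, 9.66%, 11.1% and 9.46% from the narrowest to the widest class (8.83% of all). The letters GATA were found in 53.6% of genes without a peak and 38.1% of the widest class, opposite in order to the GATA3 regions. A match of letters is not a bound site, and CpG-rich windows hold fewer A and T letters.

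Chromosome X stood apart from every autosome. Of its 848 genes 410 (48.3%, Wilson 45.0 to 51.7%) had no peak, against 16.5% of 19122 autosomal genes, and the highest autosome was chromosome 21 with 28.9%. The lowest was chromosome 3 with 8.82%. Records on X were shorter, with a median of 16189.5 bp against 24490.5 bp on the autosomes, and short genes more often had no peak. The part of length in the difference was not tested. A strong peak was present for 44.8% of X genes and 66.0% of autosomal genes. The gap was wider for weak peaks, which numbered 9.28 per Mb of gene window on X and 39.5 on the autosomes, where single chromosomes ran from 29.8 to 45.7, while strong peaks numbered 11.9 and 19.0 per Mb. The value for strong peaks on X lies within the range of the autosomes, since chromosome 18 had 11.9 as well.

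**Figure D5:**
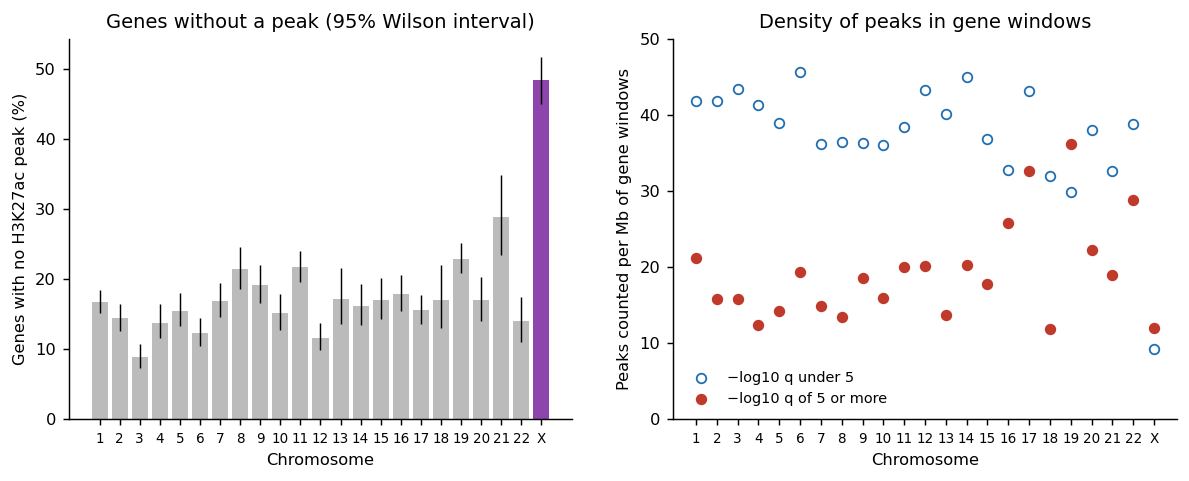
Share of genes without an H3K27ac peak per chromosome (left, bars from 0 with 95% Wilson intervals, X in purple) and number of weak (open) and strong (filled) peaks per Mb of gene windows (right). X has the tallest bar, 48.3%, and the lowest density of weak peaks, 9.28 per Mb, while its density of strong peaks is at the low edge of the autosomes.

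Genes on X that did carry the mark had fewer peaks, a median of 2 against 4 for autosomal genes with a peak. Their median sum was 1193.5 bp against 1823 bp, below that of each autosome. Their median highest signal value was 7.04 against 6.61. All 10 housekeeping-list genes on X had a strong peak. Among CpG-rich promoters (ratio of at least 0.6), 30.3% of 390 X genes and 7.36% of 9978 autosomal genes had no peak. Among the others the shares were 65.1% and 29.1%. X records were the shorter in both sets, with medians of 22446.5 against 31476 bp and 13312 against 15816 bp. Leaving out the MAGE-A, GAGE and SSX names changed the share of all X genes without a peak to 46.3%. BHLHE40 regions at starts were also fewer on X (30.9% against 50.5% of genes), as were GATA3 regions (13.6% against 24.2%). Genes with weak peaks only made up 6.84% of X genes and 17.4% of autosomal genes. Copy number in these cells was not measured, and its part in these values was not tested.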

How the data were processed

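The H3K27ac list of the 2 control lentivirus samples was deposited as 1 pooled narrowPeak list; the BHLHE40 and GATA3 lists stand likewise for 2 samples each. The submitters' processing notes name bcl2fastq 2.20, MACS2 and the build hg38, with no role given. The aligner, any other filters and use of input are not given in the sources used here. Per peak the authors deposited a score, a signal value and −log10 p- and q-values, and these were compared within a list and never between lists. The factor lists were used whole, and a score of at least 830 was tried.

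Peaks wholly within each record plus 10 kb were summed; genes were named if among the 20 first by sum, by signal value, by covered share (at least 3 peaks) or by window length without a peak, or as list members. The measure was tested on simulated data. Members and lists were chosen with earlier results of these data known. Lists were 13 sets of symbols and 28 name patterns. Nothing here was tested statistically; intervals are Wilson's at 95%. Promoter letters came from RefSeq GRCh38.p14. Genes on chromosome Y were counted and not named. The tools were numpy 2.4.6 and scipy 1.17.1 for arithmetic, pandas 2.3.3 for tables and matplotlib 3.10.9 for plots, under Python 3.11.15. A few genes are not reported here.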

Additional observations from a re-analysis of the deposited data

Results flagged for a closer look

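Some H3K27ac peaks lie outside every ranked gene. On the mitochondrial chromosome, which carries no histones, there were 11 peaks covering 9457 bp, with signal values from 1.22 to 2.62 and −log10 q-values from 17.4 to 490.3. These signal values lie below the median of 3.31 over all peaks, while the q-values are far past the threshold of 5. On unplaced or unlocalised scaffolds there were 115 peaks covering 38903 bp, with a median signal value of 3.82 and a highest of 36.4, above the highest value of any ranked gene. No list of input samples is among the files used here, so no control level is set beside these values.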

How the results depend on the processing

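No paired analysis was possible because the 2 samples of a group were deposited as 1 list, and leaving out a replicate was not run for the same reason. The share of genes with a peak was 60.8% with the record alone, 92.6% with 50 kb on each side, 65.0% with strong peaks only and 83.5% on autosomes only, a setting chosen after seeing the data, against 81.9%. The median sum was 1463 bp with peaks that overlap the window by at least 1 bp, 301 bp with the record alone, 3370 bp with 50 kb and 858 bp with strong peaks, against 1430 bp. Of the 100 genes with the largest sum, the same settings kept 98, 93, 86 and 71, and a ranking by covered share kept 0. Of the 100 genes with the highest signal value, 50 remained when ranked by −log10 q. The difference between the widest class and genes without a peak was 72.8 points for BHLHE40 and 30.5 for GATA3 with factor regions of a score of at least 830. With classes by covered share, also chosen after seeing the data, it was 80.1 for BHLHE40 and 41.8 for GATA3. With strong peaks only, the share with a peak fell by over 20 percentage points in 22 of the 41 lists and by under 5 in 11. Weak peaks cannot be told apart from background at unknown depth, and neighbouring genes share peaks.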
